A study of Mus musculus with 17 samples.

Results

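The oxidative phosphorylation genes of the nuclear genome were examined in CD8+ T cells of C57BL/6 mice that lacked or carried Cblb, an E3 ubiquitin ligase that restrains T cell receptor and CD28 signalling. Members were the protein-coding genes whose symbols in GENCODE M21 start with Nduf, Uqcr, Cox4, Cox5, Cox6, Cox7, Cox8 or Atp5, together with Sdha, Sdhb, Sdhc, Sdhd, Cyc1 and Cycs. The count files held 95 such genes among 53679, and 88 of the 95 had enough reads to be tested. Total RNA without ribosomal RNA was sequenced from 17 libraries in 6 groups. Of these, 3 were Cblb knockout (KO) and 3 wild-type (WT) libraries without stimulation, 3 KO and 3 WT with anti-CD3 alone, and 3 KO and 2 WT with anti-CD3 and anti-CD28 together. The titles give 12 hours for the stimulated libraries and no time for the unstimulated ones. Any difference in time in culture therefore cannot be told apart from stimulation. Replicate 1 of the WT group with both antibodies was not analysed here. The labels name one inbred strain for all groups and a high CD8+ purity, and give no age, no design of the Cblb allele and do not say whether the replicates are different animals. The p-values therefore cover the variation among these libraries, which may be technical.

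The respiratory chain of the inner mitochondrial membrane passes electrons from NADH through complex I and from succinate through complex II to complex III, then by cytochrome c to complex IV, which reduces oxygen. Complexes I, III and IV pump protons, and complex V (ATP synthase) uses the proton gradient to make ATP. All complexes but II combine subunits of nuclear genes with subunits of the mitochondrial genome, and activated CD8+ T cells are known to enlarge their mitochondria while they grow and prepare to divide.

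Many promoters of nuclear respiratory genes are known to bind NRF1, GABP, YY1, CREB and the ERR receptors. A RefSeq promoter window of GRCm38.p6, from 250 bases before to 50 bases after the gene start, was found for 75 of the 95 members. A palindromic NRF1 sequence (GCGCA, any base, then GCGC) stood in 24% of the 75 windows, against 6.82% of 16521 windows of all genes, and its shorter core (GCATGCGC), a form added after the Cycs window had been read, in 17.3% against 3.8%. The ETS sequence bound by GABP (CCGGAAG) stood in 22.7% of member windows (17 of 75) against 12.3% of all. The YY1 sequence (AAGATGGC) stood in 12% (9 windows) against 3.29%, and the CREB palindrome (TGACGTCA) in 6.67% (5 windows) against 2.42%. The ERR alpha sequence (TCAAGGTCA) stood in 2.67% against 0.315%, a share that rests on 2 member windows. An E-box (CACGTG) stood in 6.67% against 8.09%, and an SP1 box (GGGCGG) in 45.3% against 48.4%. Both strands were read, the NRF1 forms overlap each other, and a match is a description of letters, not a bound site. The windows of 3 genes that the results below turn on are shown, each on the gene's own strand with the matches in capitals. They belong to Cycs at chr6:50566520-50566819 (minus strand), Ndufaf4 at chr4:24897833-24898132 (plus strand) and Cox7a2l at chr17:83514284-83514583 (minus strand).
Cycs: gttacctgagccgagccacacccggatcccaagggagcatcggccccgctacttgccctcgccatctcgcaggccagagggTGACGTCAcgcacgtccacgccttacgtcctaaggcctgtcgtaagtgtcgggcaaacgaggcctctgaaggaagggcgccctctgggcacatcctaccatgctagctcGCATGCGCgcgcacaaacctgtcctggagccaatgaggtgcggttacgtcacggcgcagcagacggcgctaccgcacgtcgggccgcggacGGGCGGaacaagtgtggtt
Ndufaf4: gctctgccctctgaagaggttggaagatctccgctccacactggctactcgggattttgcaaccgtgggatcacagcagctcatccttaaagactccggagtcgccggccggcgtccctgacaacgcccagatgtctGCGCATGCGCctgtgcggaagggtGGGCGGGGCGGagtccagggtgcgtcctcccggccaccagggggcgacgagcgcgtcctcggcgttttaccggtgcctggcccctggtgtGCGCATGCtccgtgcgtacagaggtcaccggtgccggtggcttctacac
Cox7a2l: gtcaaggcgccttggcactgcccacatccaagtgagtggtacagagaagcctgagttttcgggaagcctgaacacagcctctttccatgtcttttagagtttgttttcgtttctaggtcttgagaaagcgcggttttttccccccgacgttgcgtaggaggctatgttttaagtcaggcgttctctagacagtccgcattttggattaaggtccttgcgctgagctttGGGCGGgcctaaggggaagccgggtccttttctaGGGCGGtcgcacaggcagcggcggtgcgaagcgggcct
The Cycs window holds 1 NRF1 core, 1 CREB and 1 SP1 match, and the Ndufaf4 window holds 1 palindromic NRF1 match, 3 core matches and 2 overlapping SP1 matches. In the Cox7a2l window the letters of SP1 matched at 2 places, and those of the other factors did not match. In GENCODE M21 (GRCm38), Cycs lies at chr6:50562563-50566538, Ndufaf4 at chr4:24898083-24905001 and Cox7a2l at chr17:83501918-83517330, where the RefSeq start of Cox7a2l is inside the annotated gene. Among the members, 12 overlap another gene on the same strand and 32 a gene on the opposite strand, and 12 processed pseudogenes carry matching names, so reads of these families may be split in ways the counts do not show.

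Library totals ran between 16635826 and 38269033 counts in 16 libraries and reached 160059285 in unstimulated KO replicate 2. The members took 0.469 to 0.66% of the counts. Cblb itself had 63.9 to 95.9 CPM, counts scaled to library size, in the KO libraries, against 139.5 to 190.1 CPM in the WT libraries, lower in every KO library though not at 0. The 6 CD8 T cell markers summed to between 1710 and 3356 CPM, while Cd4 did not pass 0.292 CPM and the B cell, myeloid, NK and erythroid lists did not pass 26.7, 3.17, 4.02 and 3.47 CPM. Foxp3, a regulatory T cell marker, ran from 0.89 to 2.16 CPM. A property that touches every result below is the GC content of the transcripts. The level of GC-rich minus GC-poor genes, as a median log2 deviation, ran from 0.16 to 1.14 in unstimulated KO libraries against -0.71 to -0.29 in unstimulated WT libraries, from 0.10 to 0.24 in KO against -0.39 to -0.11 in WT with anti-CD3, and from -1.10 to 0.33 in KO against 0.49 to 0.54 in WT with both antibodies. The genotypes did not overlap in any state and changed sides with both antibodies, and the extremes were unstimulated KO replicate 2 and KO replicate 3 with both antibodies. Each comparison was therefore also fitted after the GC trend of each library had been removed, and a member is said to be called in both fits when its adjusted p was under 0.05 in the same direction with and without that correction, a rule chosen after the data had been seen.

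Summed over all complexes, the subunits were more abundant in the KO than in the WT libraries in each state. By complex and before GC correction, I, II and V lay above WT in every KO library in each state, complexes III and IV overlapped without stimulation, and cytochrome c was below WT without stimulation and above it with either stimulation. Without stimulation, all subunits together had 5789 ± 201 CPM in KO cells and 5248 ± 222 CPM in WT cells (SD, n = 3 each). With anti-CD3 they had 5972 ± 550 CPM in KO cells and 4854 ± 50.4 CPM in WT cells (n = 3 each), and with both antibodies 5635 ± 332 CPM in KO cells (n = 3) and 4732 ± 4.33 CPM in WT cells (n = 2). The KO and WT libraries did not overlap in these sums in any of the 3 states. After GC correction the means were 5557 CPM in KO libraries and 5401 CPM in WT libraries without stimulation, 5730 CPM and 5011 CPM with anti-CD3, and 5686 CPM and 4688 CPM with both antibodies. The gap without stimulation was thus smaller than the SD of 248 CPM between the corrected KO libraries. By complex, the corrected KO and WT libraries without stimulation overlapped in I, III, IV, V and cytochrome c, and complex II kept apart at 346 ± 13.4 CPM in KO libraries against 317 ± 4.49 CPM in WT libraries. There complex IV had 1161 CPM in KO libraries against 1165 CPM in WT libraries, and cytochrome c 86.9 CPM in KO libraries against 81.6 CPM in WT libraries, both with the direction turned by the correction. With anti-CD3 the corrected libraries overlapped in complex IV, and with both antibodies in complex II. The complex IV sums include Cox7a2l, a supercomplex factor. Its corrected mean with anti-CD3 was 253.6 CPM in KO libraries, below 320.5 CPM in WT libraries, and no complex IV sum without it was made. No test was run on the sums.

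**Figure D1:**
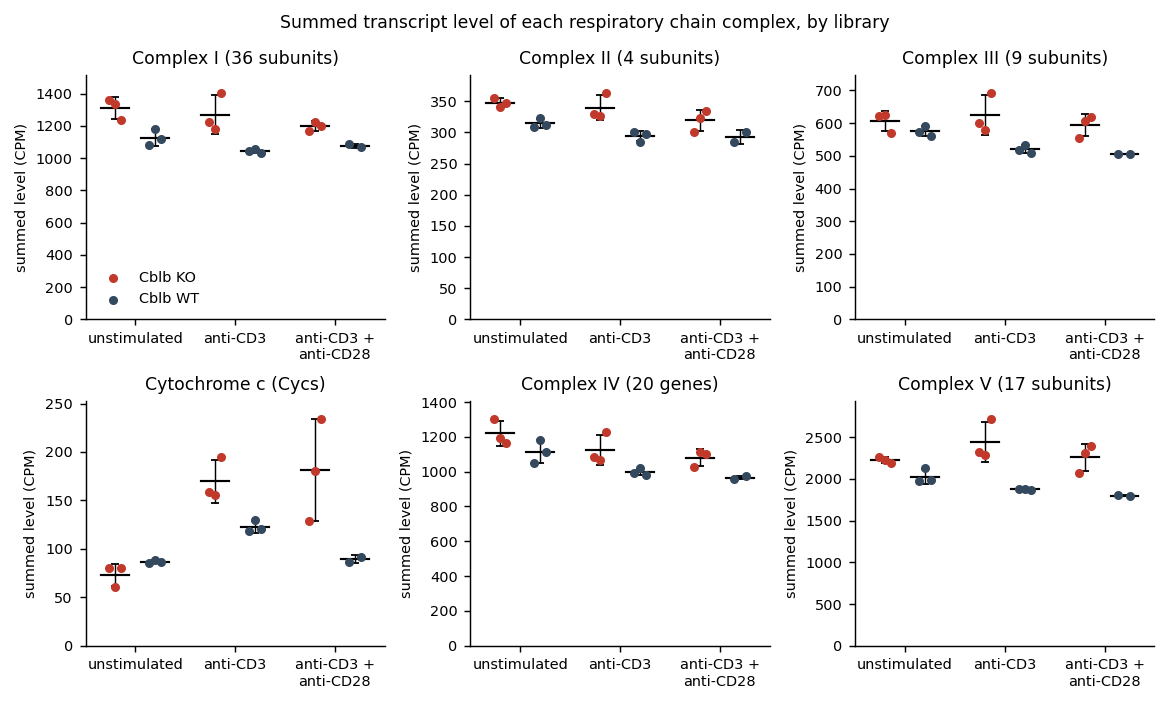
Summed CPM of the subunits of each complex in each of the 17 libraries (points), with the group mean (horizontal line) and SD (bars), KO (red) left of WT (blue) in each state and assembly factors left out. The KO points lie above the WT points in complexes I and V in all 3 states, and cytochrome c lies below WT without stimulation. The complex IV sums include Cox7a2l.

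Complex V, with the most CPM in each library among the complexes, had 2268, 2233 and 2189 CPM in unstimulated KO libraries against 1971, 2128 and 1989 CPM in WT libraries. With anti-CD3 it had 2324, 2283 and 2720 CPM in KO libraries against 1879, 1882 and 1864 CPM in WT libraries. With both antibodies it had 2076, 2307 and 2396 CPM in KO libraries against 1807 and 1796 CPM in WT libraries. The KO libraries were the higher ones in each state without overlap, and KO replicate 3 with anti-CD3 was the highest of all. After GC correction complex V overlapped without stimulation, at 2216, 2058 and 2146 CPM in KO libraries against 2054, 2127 and 2021 CPM in WT libraries. Complex I had 1311 ± 66.7 CPM in KO libraries and 1127 ± 51.4 CPM in WT libraries without stimulation, 1270 ± 120 CPM and 1044 ± 12.3 CPM with anti-CD3, and 1199 ± 28.5 CPM and 1077 ± 12.3 CPM with both antibodies. Complex II, succinate dehydrogenase, had 348 ± 7.38 CPM in KO libraries and 314 ± 7.83 CPM in WT libraries without stimulation, 339.9 ± 20.8 CPM and 294 ± 8.01 CPM with anti-CD3, and 319.6 ± 16.6 CPM and 292 ± 11.1 CPM with both antibodies. In bulk RNA, fewer cells of a type and less RNA per cell cannot be told apart.

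Compared per length, as RPKM, counts scaled by transcript length and library size, over 1 transcript chosen for each gene, the order of the members depends on that choice. Cox7a2l, a relative of the complex IV subunit Cox7a that is known as a supercomplex factor and of which C57BL/6 mice are known to carry a shortened form, stood first in both unstimulated groups and in both stimulated WT groups, at 397 ± 29 RPKM in KO and 365 ± 26.7 RPKM in WT cells without stimulation. In both stimulated KO groups Atp5b, the catalytic beta subunit of ATP synthase, stood first and Cox7a2l was the third, with 360 ± 36.1 RPKM for Atp5b and 242 ± 10.1 RPKM for Cox7a2l with anti-CD3. Uqcrh, the hinge protein of complex III, was the second in all KO groups. Cycs, cytochrome c, ranged from 23.5 ± 3.66 RPKM in unstimulated KO cells, rank 71 of 88, to 58 ± 16.8 RPKM in KO cells with both antibodies, rank 30. The tissue isoforms of complex IV were close to absent. Cox4i2, Cox6a2, Cox7a1, Cox7b2, Cox8b, Cox8c and Ndufa4l2, which serve lung, heart and skeletal muscle, testis or hypoxic cells, did not pass the filter on low counts, and Cox6b2, the testis partner of Cox6b1, was tested at no more than 0.582 CPM.

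Without stimulation, 27 of the 88 members were higher in KO than in WT cells and none was lower (edgeR quasi-likelihood test, Benjamini-Hochberg adjusted p under 0.05 over 16246 genes). Over all genes tested, 15.3% were higher and 10.1% lower, and the median log2 difference was 0.13 for the members against -0.01 for all genes. The 27 held 4 core subunits, 10 accessory subunits and 2 assembly factors of complex I, 1 member of complex II, 3 of complex III, 1 of complex IV and 6 of complex V. DESeq2 called 28 higher and 0 lower, and limma voom with quality weights 32 higher and 0 lower, while gene length correction gave 20 higher and 8 lower. Here and below, the share of all genes called was taken only for edgeR on all libraries, with and without GC correction. An unadjusted p under 0.05 was found for 34 members, or 38.6%, against 40.1% of all genes. Across the 88 members the difference followed transcript GC content with r = 0.74 (n = 88 genes that share the libraries, a description). After GC correction 11 members were higher and 2 lower, against a background of 3.04% and 3.26%. The 9 members higher in both fits, against 2.52% of all genes with 1.57% lower, were the complex I accessory subunits Ndufa2, Ndufa7, Ndufa8, Ndufa11, Ndufa13, Ndufb7 and Ndufs5, the small complex III subunit Uqcr10 and the ATP synthase membrane subunit Atp5j2.

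Ndufb7, an accessory subunit on the intermembrane side of complex I, had 28.6, 37.1 and 23.9 CPM in unstimulated KO libraries against 9.56, 13.8 and 11.6 CPM in WT libraries. Ndufa11, which sits in the membrane arm where complex I meets its partners, had 16.6, 16 and 11.6 CPM in KO libraries against 5.15, 5.93 and 7.24 CPM in WT libraries. All KO libraries lay above all WT libraries for both genes. The log2 differences were 1.38 (SE 0.24, adjusted p = 0.00523) for Ndufb7 and 1.29 (SE 0.22, adjusted p = 0.00467) for Ndufa11, and 0.61 and 0.64 after GC correction. With Ndufa8 they were the only members called higher under all 29 alternative settings. The count rested on single libraries, with 4 members higher without KO replicate 2 and 6 without WT replicate 1.

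**Figure D2:**
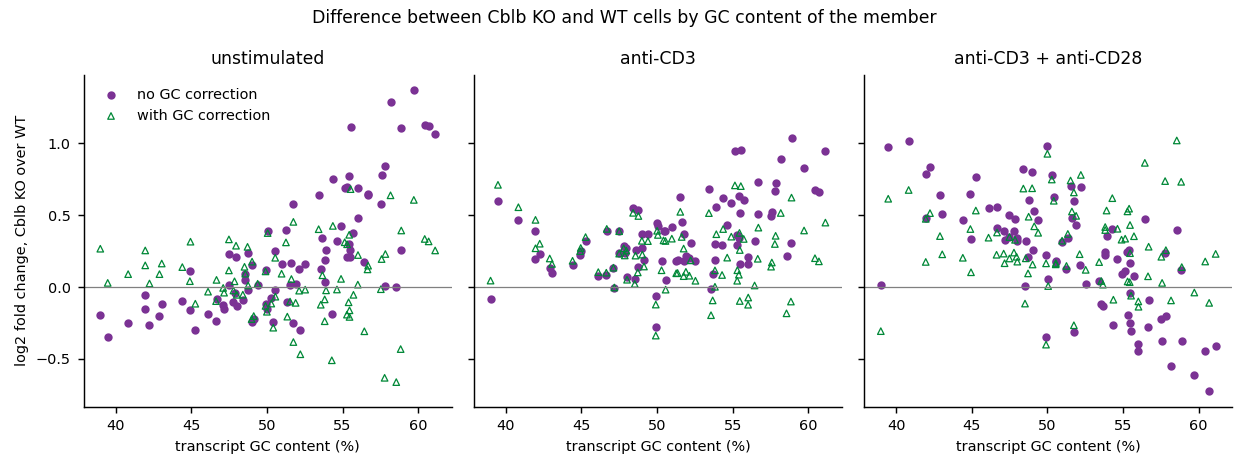
Log2 difference of KO against WT (vertical axis) for the tested members against the GC percent of their transcripts, in each of the 3 states before (filled points) and after (open triangles) the GC correction, with Cox6b2 left out for its low counts. The slope is upward without stimulation (r = 0.74) and with anti-CD3 (r = 0.43), downward with both antibodies (r = -0.67), and near flat after correction.

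With anti-CD3 alone, 30 members were higher in KO than in WT cells and 1, Cox7a2l, was lower, against 10.5% and 4.8% of all genes. The median log2 difference was 0.31 for the members and 0.04 for all genes, and 82 of the 88 values were above 0. After GC correction 34 were higher and 1 lower, against 11% and 11.5%. In both fits 22 were higher, against 7.89% of all genes, and 1 lower, against 4.62%. Complex V gave 7 of its 17 members to these 22, complex I 9 of 36, complex II 2 of 4, complex III 3 of 9 and complex IV 1 of 13, and of the 8 complex I assembly factors none was among them. Leaving out KO replicate 3 reduced the count of members higher to 9, leaving out WT replicate 2 or 3 reduced it to 16 or 14, and leaving out KO replicate 3 with both antibodies, which is not in the comparison but in the shared spread, raised it to 46. Gene length correction gave 14 higher, a fit of the compared groups alone 51, and limma voom with quality weights 58. No share of all genes was taken for these alternative settings.

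**Figure D3:**
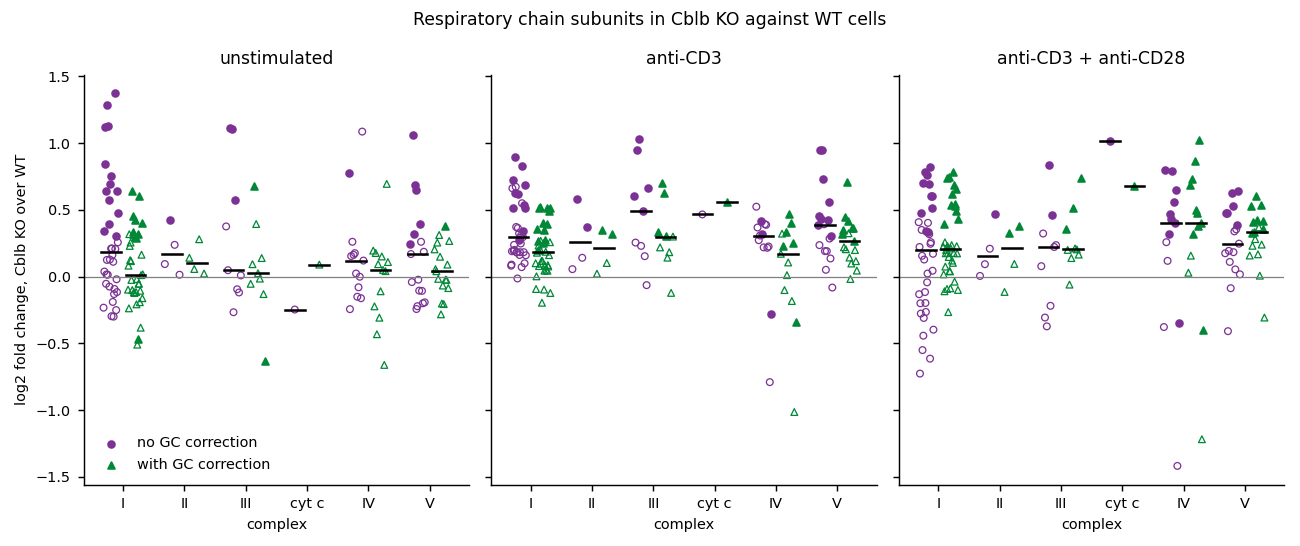
Log2 difference of KO against WT for the tested subunits of each complex in the 3 states, without (purple circles) and with (green triangles) GC correction, where filled symbols are called at adjusted p under 0.05 and lines are medians. With anti-CD3 and no GC correction the medians of complexes III and V are 0.49 and 0.39, and Cox7a2l is the member called lower with anti-CD3 and with both antibodies.

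Atp5b, of the catalytic head of ATP synthase, had 651, 646 and 769 CPM in KO libraries against 506, 508 and 496 CPM in WT libraries. Its log2 difference was 0.45 (SE 0.09, adjusted p = 0.00256), and 0.35 after GC correction (adjusted p = 0.00366; 1.18e-05 to 0.0235 over the alternatives). Atp5a1, the alpha subunit that alternates with beta in the catalytic head, had 500, 479 and 577 CPM in KO libraries against 410, 394 and 385 CPM in WT libraries, a log2 difference of 0.39 (SE 0.08, adjusted p = 0.00523). The KO libraries were all above the WT libraries for both. Of the 3 genes that encode the same mature c-ring subunit, Atp5g1 had 67.7, 60.1 and 81.9 CPM in KO libraries against 39.6, 35.7 and 33.6 CPM in WT libraries, a log2 difference of 0.95 (SE 0.15, adjusted p = 0.000646). Atp5g2 was higher by 0.73 (adjusted p = 0.00243), and Atp5g3 had a difference of 0.39 that was not called (adjusted p = 0.0737). Atp5a1, Atp5b, Atp5g1, Atp5g2 and the membrane subunit Atp5k were called under all 29 alternatives, as were Ndufa12 and Sdhb.

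In complex I the NADH-binding core subunit Ndufv1 and the iron-sulfur core subunit Ndufs8 were higher by 0.51 and 0.72 and called in both fits, while the core subunits Ndufs1 and Ndufs3 had differences of 0.08 and 0.19 that were not called in either fit. Ndufa12, an accessory subunit of the matrix arm, had 34.1, 34.1 and 45.3 CPM in KO libraries against 23.4, 25.3 and 25 CPM in WT libraries, a log2 difference of 0.62 (SE 0.11, adjusted p = 0.00111). Its KO libraries were all above the WT libraries, whereas without stimulation the values of 20 to 21.5 CPM in KO and 20.2 to 20.7 CPM in WT libraries overlapped. In complex II, Sdhb, the iron-sulfur subunit, had 54.6, 53 and 69.6 CPM in KO libraries against 41.5, 39.8 and 37.2 CPM in WT libraries, a log2 difference of 0.58 (SE 0.12, adjusted p = 0.00287). Sdhd, one of its membrane anchors, was higher by 0.37 and called in both fits, and Sdha, the flavoprotein that oxidises succinate, differed by 0.06 with no call. In complex III, Cyc1, the cytochrome c1 subunit, was higher by 0.61 and the small subunits Uqcr10 and Uqcr11 by 0.95 and 1.03, all called in both fits.

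With both antibodies, 31 members were higher in KO than in WT cells and 1, Cox7a2l, was lower, against 9.84% and 6.3% of all genes. The median log2 difference was 0.25 for the members and 0 for all genes. After GC correction 39 were higher and 1 lower, against 9.66% and 7.84%, and in both fits 25 were higher, against 6.95%, and 1 lower, against 4.09%. These calls rest on the spread shared over the 6 groups and on 2 WT libraries. DESeq2 called 37 higher and 4 lower, and limma voom with quality weights 56 higher and 17 lower, with no share of all genes taken for either. A fit of the compared groups alone, and a fit without either WT library, called no member at adjusted p under 0.05, although 53 of the 88 had an unadjusted p under 0.05 in the shared fit, against 33.4% of all genes. Without KO replicate 1, 45 members were higher and 10 lower, and without KO replicate 2 or 3, 18 or 12 were higher.

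Of 13 complex IV members, 8 were higher in both fits, namely Cox5a, Cox6b1, Cox6c, Cox7a2, Cox7b, Cox7c, Cox8a and Ndufa4, a subunit once placed in complex I. The log2 differences ran from 0.32 for Cox6b1 to 0.80 for Cox5a. Cycs had 129, 181 and 234 CPM in KO libraries with both antibodies against 86.8 and 92 CPM in WT libraries. All KO libraries lay above the WT libraries, with a wide gap among the KO libraries themselves. The log2 difference of Cycs was 1.02 (SE 0.18, adjusted p = 0.00425), and 0.68 after GC correction (adjusted p = 0.000493; 5.79e-09 to 0.23 over the alternatives). With anti-CD3 alone Cycs had 158, 155 and 195 CPM in KO libraries against 118, 130 and 121 CPM in WT libraries, without overlap. That difference of 0.47 missed the threshold (adjusted p = 0.0584), and after GC correction it was 0.56 (adjusted p = 0.00028; 9.47e-05 to 0.275 over the alternatives). Without stimulation Cycs had 80, 60.2 and 80 CPM in KO libraries, all under the 85.6, 88.7 and 86.3 CPM of the WT libraries, with no call (log2 difference -0.25, adjusted p = 0.267) and a value of 0.09 after GC correction.

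Cox7a2l was lower in stimulated KO than in stimulated WT cells. With anti-CD3 it had 273, 255 and 253 CPM in KO libraries against 317, 323 and 308 CPM in WT libraries, and with both antibodies 274, 274 and 225 CPM in KO libraries against 326 and 329 CPM in WT libraries. The KO libraries were below the WT libraries in both states, while without stimulation 455, 432 and 393 CPM in KO libraries overlapped with 362, 419 and 397 CPM in WT libraries. The log2 differences were -0.28 (SE 0.09, adjusted p = 0.0429) with anti-CD3 and -0.35 (SE 0.10, adjusted p = 0.0289) with both antibodies, and -0.34 and -0.40 after GC correction. Over the alternatives the adjusted p reached 0.165 with anti-CD3 and 0.241 with both antibodies. The call with anti-CD3 was lost when any library of the comparison was left out, and when unstimulated WT replicate 3, KO replicate 2 or WT replicate 3 with both antibodies was.

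Ndufs7, an iron-sulfur subunit of complex I, had 23.4, 25.6 and 19.9 CPM in unstimulated KO libraries against 8.27, 11.4 and 12.2 CPM in WT libraries, and 19.5, 13.7 and 7.03 CPM in KO libraries with both antibodies against 21.3 and 23.1 CPM in WT libraries. Cox4i1, a subunit of complex IV, had 174, 175 and 130.5 CPM in unstimulated KO libraries against 77.2, 103 and 100.3 CPM in WT libraries, and 135, 105 and 63.8 CPM in KO libraries with both antibodies against 127 and 136 CPM in WT libraries. Both were above WT without stimulation, with log2 differences of 1.12 and 0.78 that were called, and both had values of -0.73 and -0.38 with both antibodies that were not. Neither was called after GC correction, with 0.32 and 0.20 without stimulation. The core subunits Sdhc and Uqcrfs1, the Rieske iron-sulfur protein, were called in no state, with values between 0.05 and 0.32.

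With anti-CD3 against no stimulation, Cycs was higher in both genotypes. Ndufa10, Ndufb10, Ndufb11, Ndufv3, Uqcrh, Cox7a2l and Atp5h were lower in both. The unstimulated libraries carry no time in their titles, so a part of time in culture cannot be told apart. In KO cells 24 members rose and 10 fell, against 19.6% and 17.3% of all genes, and in both fits 23 rose and 8 fell, against 16.8% and 16.7%. In WT cells 2 rose and 10 fell, against 11.3% and 13.1%, and the same counts held in both fits, against 11.1% and 13%. The median log2 change was 0.08 in KO and -0.04 in WT cells. The 2 that rose in WT cells were Cycs and Ndufaf2, an assembly factor of complex I, and both rose in KO cells too. Both genotypes' libraries changed alongside in the CD8 T cell list, which summed to 1710 to 1808 CPM in KO libraries and 1898 to 1907 CPM in WT libraries with anti-CD3, against 3135 to 3356 CPM in KO libraries and 3047 to 3170 CPM in WT libraries without stimulation. The B cell list summed to 8.07 to 9.4 CPM in KO libraries and 6.95 to 9.39 CPM in WT libraries with anti-CD3, against 19 to 26.7 CPM in KO libraries and 17.1 to 19.3 CPM in WT libraries without stimulation. The NK cell list summed to 0.113 to 0.721 CPM in KO libraries and 0.569 to 1.78 CPM in WT libraries with anti-CD3, against 2 to 3.14 CPM in KO libraries and 2.24 to 4.02 CPM in WT libraries without stimulation. The part of these lists in the members' changes was not tested. In KO cells 10 members rose without KO replicate 3 with anti-CD3, and 15 or 12 without unstimulated KO replicate 1 or 2. There 6 fell without KO replicate 2 with anti-CD3. In WT cells 6 fell without unstimulated WT replicate 2, and the count that rose was 0 without unstimulated WT replicate 1 or 2 and without WT replicate 1 or 3 with anti-CD3, and 4 without KO replicate 3 with anti-CD3 or KO replicate 1 or 3 with both antibodies.

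Cycs, with the largest log2 change of the 88 members in KO cells, rose to 158, 155 and 195 CPM with anti-CD3, against 80, 60.2 and 80 CPM without stimulation, a log2 change of 1.21 (SE 0.16, adjusted p = 2.04e-05) and of 0.96 after GC correction. In WT cells its log2 change was 0.50 (SE 0.16, adjusted p = 0.031). Ndufab1, the mitochondrial acyl carrier protein, which also serves iron-sulfur cluster assembly, had 36, 33 and 42.1 CPM in KO libraries with anti-CD3, against 20.3, 15.4 and 20.1 CPM without stimulation. Its log2 change was 1.01 in KO cells (SE 0.14, adjusted p = 3.01e-05), and 0.39 in WT cells with no call (adjusted p = 0.0518). Ndufaf4, a complex I assembly factor, had 50.8, 55.5 and 70.9 CPM in KO libraries with anti-CD3, against 28.4, 21.4 and 35.9 CPM without stimulation, a log2 change of 1.07 (SE 0.21, adjusted p = 0.000841). In WT cells it changed by 0.13 with no call (adjusted p = 0.72). For all 3 genes the stimulated KO libraries lay above every unstimulated KO library. Ndufa12, Ndufb6, Uqcrq, Cox5a and Atp5g1 also rose in KO cells under all 29 alternatives, with log2 changes of 0.57 to 0.87.

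**Figure D4:**
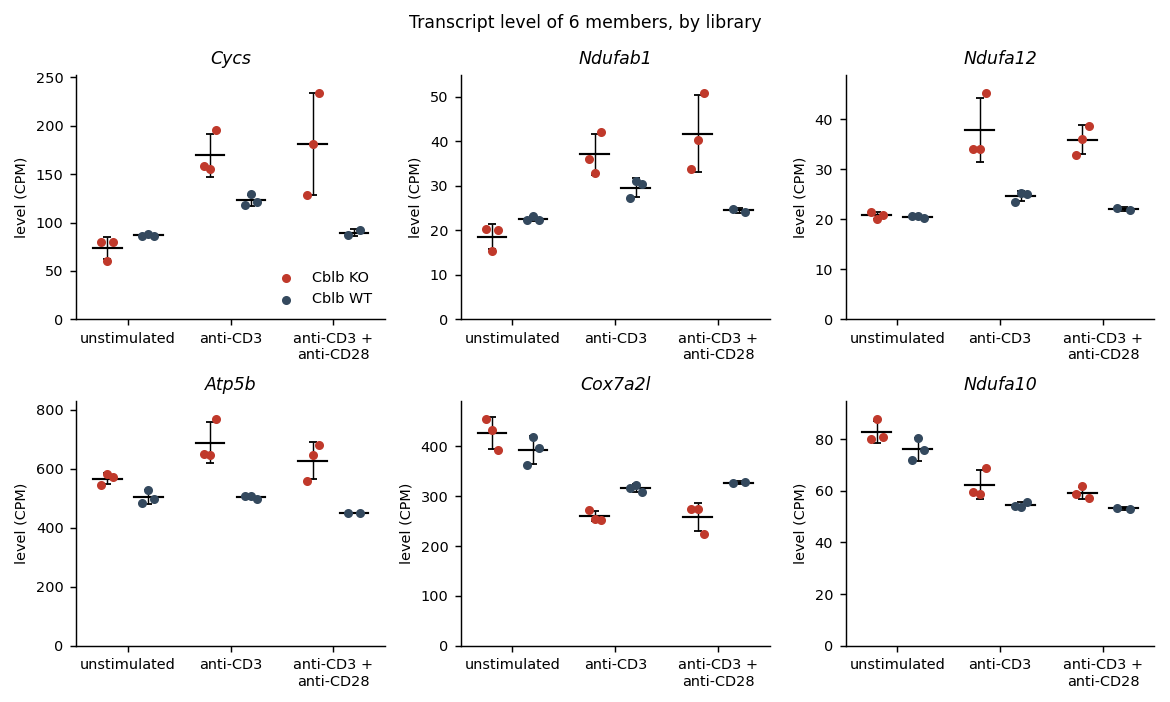
CPM of 6 members in each library (points) with the group mean (line) and SD (bars), KO (red) left of WT (blue) in each state. Cycs, Ndufab1 and Ndufa12 are high in the stimulated KO libraries, Cox7a2l and Ndufa10 are lower with stimulation in both genotypes, and Atp5b is above WT in all KO libraries.

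Ndufa10, an accessory subunit of the complex I membrane arm, had 59.7, 58.8 and 68.7 CPM in KO libraries with anti-CD3, against 80, 87.8 and 80.7 CPM without stimulation, and 53.9, 53.5 and 55.7 CPM in WT libraries with anti-CD3, against 71.8, 80.4 and 75.8 CPM without stimulation. It fell by 0.41 in KO cells (adjusted p = 0.00075) and by 0.48 in WT cells (adjusted p = 0.000281) on the log2 scale, with no overlap between the states. Ndufb10, Ndufb11 and Uqcrh fell in both genotypes under all 29 alternatives, by 0.53, 0.37 and 0.34 in KO and by 0.49, 0.40 and 0.39 in WT cells. Atp5c1 and Atp5h, of the central and the peripheral stalk of ATP synthase, fell by 0.44 and 0.30 in WT cells, and Atp5h fell by 0.23 in KO cells. Cox7a2l fell by 0.72 in KO cells (adjusted p = 9.5e-06) and by 0.31 in WT cells (adjusted p = 0.0159). Ndufv3, an accessory subunit of complex I, went from a mean of 44.8 to 25.3 CPM in KO libraries and from 32.3 to 22.7 CPM in WT libraries. Its fall in KO cells was called under all 29 alternatives.

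**Figure D5:**
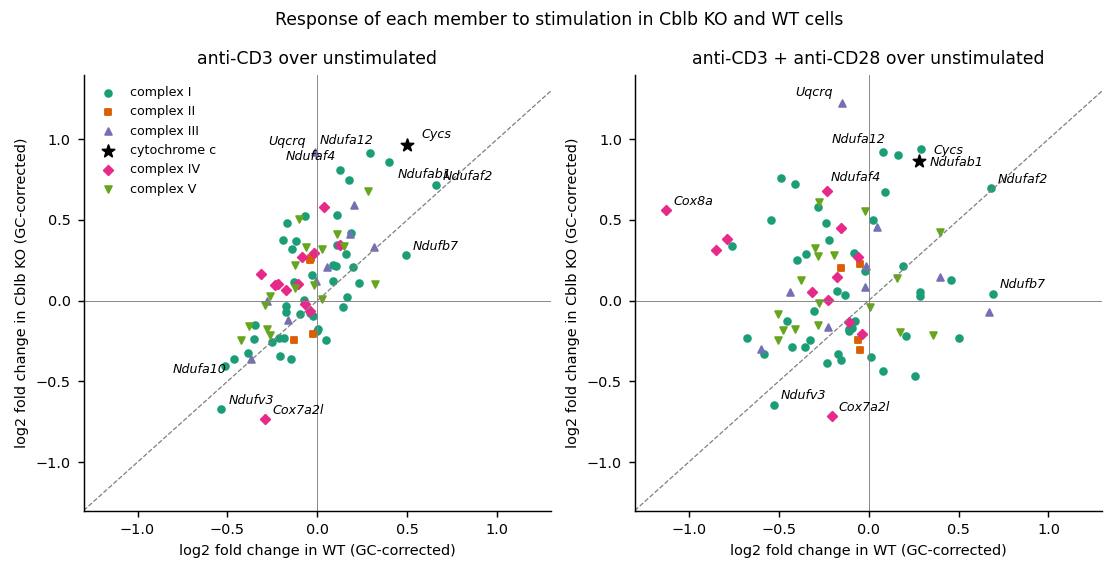
GC-corrected log2 change of each member with stimulation against no stimulation in KO cells (vertical axis) and in WT cells (horizontal axis), for anti-CD3 (left) and for both antibodies (right), with Cox6b2 left out and the line of equal change dashed. Cycs changes by 0.96 in KO and 0.50 in WT cells with anti-CD3, and Cox7a2l by -0.74 in KO and -0.29 in WT cells.

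Both antibodies against no stimulation gave 23 members that rose and 21 that fell in KO cells, against 23% and 22.5% of all genes, a share near the background in both directions. In WT cells 11 rose and 21 fell, against 17.8% and 16.3%. In both fits 18 rose and 14 fell in KO cells, against 15.5% and 16.5%, and 6 rose and 18 fell in WT cells, against 11.7% and 12.7%. The CD8 T cell list summed to 1773 to 1800 CPM in KO libraries and 1844 to 1855 CPM in WT libraries with both antibodies. There the B cell list summed to 5.1 to 9.37 CPM in KO libraries and 7.78 to 9.19 CPM in WT libraries, and the NK cell list to 0.68 to 1.17 CPM in KO libraries and 1.09 to 1.57 CPM in WT libraries, below their levels without stimulation, and the part of these lists was not tested. A fit of the compared groups alone gave 10 and 10 in KO cells. Members that rose in KO cells numbered 12 without unstimulated KO replicate 2, 14 without KO replicate 3 with both antibodies and 8 without both. In WT cells 7 rose without unstimulated WT replicate 1, 17 without KO replicate 1 with both antibodies, and 6 or 5 rose and 8 fell without WT replicate 2 or 3 with both antibodies. Cycs rose by 1.31 in KO cells (SE 0.16, adjusted p = 9.54e-06) and differed by 0.04 in WT cells (adjusted p = 0.878). After GC correction these changes of Cycs were 0.86 in KO cells (adjusted p = 2.5e-07; 9.78e-13 to 0.00549 over the alternatives) and 0.28 in WT cells (adjusted p = 0.0443; 0.029 to 0.995 over the alternatives). Ndufa12, Ndufab1, Ndufb4, Ndufb6, Ndufaf2, Ndufaf4 and Cycs rose in KO cells, and Ndufa10, Ndufa8, Ndufa13, Ndufb11, Ndufv3 and Cox7a2l fell, under all 29 alternatives. In WT cells Ndufa11, Ndufb7, Uqcr11 and Atp5g1 rose and Ndufa10, Uqcrh, Cox8a, Atp5c1, Atp5h and Atp5mpl fell under all of them.

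Anti-CD28 added to anti-CD3, a comparison of the 2 stimulated groups of one genotype, gave no call among the members or among the 16246 genes with edgeR in either genotype (0% of all genes). An unadjusted p under 0.05 was found for 18 members in KO cells and for 26 in WT cells, against 8.99% and 21.6% of all genes. DESeq2 called none in KO cells and 2 higher and 3 lower in WT cells, and limma voom with quality weights called 16 higher and 20 lower in KO cells and 22 higher and 23 lower in WT cells. The share of all genes that DESeq2 and voom called was not taken, so these member counts have no background. Leaving out KO replicate 1 with both antibodies gave 9 members lower in KO cells and 6 higher and 4 lower in WT cells, and leaving out KO replicate 3 gave 9 higher and 4 lower in WT cells. Cycs changed by 0.10 in KO cells and by -0.46 in WT cells with no call, and Ndufa12 by -0.08 and -0.16.

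The difference between the genotypes' responses was tested as an interaction. For anti-CD3 no member passed the threshold, against 0.0492% of all genes that were higher and 0.00616% that were lower. Of the 88 members 22, or 25%, had an unadjusted p under 0.05, against 14.8% of all genes, DESeq2 called 1 in each direction, and limma voom 4 higher and 1 lower. Leaving out KO replicate 1 or 3 with both antibodies gave 4 higher. With GC correction the KO response was higher for Ndufa12, Ndufaf4 and Uqcrq and lower for Cox7a2l, against 1.3% and 1.21% of all genes. Ndufa12 had an interaction of 0.61 (SE 0.15, adjusted p = 0.142), and of 0.63 after GC correction (adjusted p = 0.0306; 0.0196 to 0.368 over the alternatives). Cox7a2l had -0.40 (SE 0.13, adjusted p = 0.199), and -0.45 after GC correction (adjusted p = 0.042; 0.0151 to 0.445 over the alternatives).

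For both antibodies the interaction was higher for 30 members and lower for 20, against 18.3% and 19.2% of all genes, and it followed GC content across the members with r = -0.73 (n = 88). With GC correction it was higher for 29 and lower for 6, against 8.32% and 6.61%, and in both fits for 16 and 6, against 4.72% and 4.91%. The 16 were Ndufa5, Ndufa12, Ndufab1, Ndufb2, Ndufb4, Ndufc1, Ndufaf4, Ndufaf6, Uqcrb, Cycs, Cox5a, Cox7a2, Cox8a, Ndufa4, Atp5g3 and Atp5f1, and the 6 were Ndufa2, Ndufa8, Ndufa11, Ndufb7, Uqcr10 and Cox7a2l. Ndufa5, Ndufa12, Ndufb4, Ndufc1 and Atp5g3 stayed higher and Ndufa11 and Ndufb7 lower under all 29 alternatives. Atp5g3, a c-ring gene, had 87, 106 and 135 CPM in KO libraries with both antibodies, against 86.4, 62 and 75.6 CPM without stimulation, and 71.8 and 70.2 CPM in WT libraries with both antibodies, against 96.1, 88.6 and 79.5 CPM without stimulation. Its interaction was 0.87 (SE 0.22, adjusted p = 0.00656). That of Cycs was 1.27 (SE 0.24, adjusted p = 0.00368), and 0.59 after GC correction (adjusted p = 0.00993; 1.15e-06 to 0.0587 over the alternatives). Without WT replicate 2 or 3 with both antibodies 17 or 14 members were higher.

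Among the 8 complex I assembly factors, Ndufaf3 and Ndufaf8 were higher in unstimulated KO than WT cells, Ndufaf8 with anti-CD3, and Ndufaf4 and Ndufaf6 with both antibodies. Only the last pair was called in both fits, Ndufaf4 at 42.3, 62.6 and 85.2 CPM in KO libraries against 32 and 32.4 CPM in WT libraries, a log2 difference of 0.98 (SE 0.23, adjusted p = 0.0165). The RNA of the 13 subunits of the mitochondrial genome was lower in unstimulated KO than WT cells for 7 of 13, against 10.1% of all genes. The median log2 difference was -0.48. With both antibodies 1 was higher, against 9.84% of all genes, with a median of 0.45. With GC correction edgeR called 0 of the 13 in either state, and the medians were -0.06 and 0.14. With anti-CD3 the median was -0.12. Summed without GC correction, the 13 had 13390 ± 2118 CPM in KO libraries and 18510 ± 1937 CPM in WT libraries without stimulation. With anti-CD3 the sums were 10300 ± 298 CPM in KO and 12200 ± 751 CPM in WT libraries. With both antibodies they were 12730 ± 1782 CPM and 9954 ± 365 CPM. A single gene, mt-Co1, made up most of each sum. Without stimulation mt-Co1 had 10020, 7998 and 10310 CPM in KO libraries against 14390, 13170 and 11760 CPM in WT libraries. No GC-corrected sum was made.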

How the data were processed

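RNA left after ribosomal RNA removal was sequenced from 17 libraries with a stranded total RNA kit, per the labels' protocols. The authors deposited whole-number counts per gene. STAR 2.5.2, RSEM 1.3.0 and GRCm38 (mm10) are named in the submitters' processing notes, and the sources used here give no rounding step, annotation release or strand setting. Of 53679 identifiers, 53650 matched GENCODE M21 (GRCm38), and 16246 genes passed edgeR's filter on low counts.

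All 6 groups were fitted together with edgeR 4.0.16 (R 4.3.3; TMM scaling, quasi-likelihood test, Benjamini-Hochberg adjustment, threshold 0.05) for 11 contrasts, and the common biological coefficient of variation was 0.153. The GC correction fitted a loess (span 0.3) of each library on transcript GC content and entered it as an offset. CPM used TMM library sizes. The code was tested on simulated data. The 29 alternatives include DESeq2 1.42.0, limma 3.58.1 voom and leaving out each of 17 libraries. Replicate numbers were not used as pairs. Figures were drawn with matplotlib 3.10.9.

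The members and lists were chosen with earlier results of these data known. Named genes are the core subunits, the paralogue sets, the called assembly factors and, for each contrast, up to 3 called members with the highest and 3 with the lowest log2 change per complex. Genes named outside that rule, such as those called in both fits, were chosen after their values were seen. Protein sequences were not used here, and the values of 1 core subunit are not reported here.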

Additional observations from a re-analysis of the deposited data

Results flagged for a closer look

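The response to both antibodies differed between KO and WT cells for the 35 named members below. The test was edgeR's interaction without GC correction, at adjusted p under 0.05 over all 16246 genes. The 35 are a part of the members it called, taken by the rule for named genes. Ndufa5, Ndufa12 and Ndufc1, called higher under all 29 alternatives, are among those left out. With GC correction 19 of the 35 were not called, and 4 had the other sign. Each value is the KO minus the WT log2 response, followed in parentheses by the value after GC correction.

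The KO response was the higher one for Ndufaf4 1.32 (0.59), Cycs 1.27 (0.59), Ndufaf6 1.13 (1.1), Uqcrb 1.1 (0.49), Ndufab1 1.06 (0.65), Cox5a 1.04 (0.91), Ndufb4 1 (1.25), Cox7b 0.94 (0.32), Ndufb6 0.91 (0.74) and Atp5g3 0.87 (0.88). It was also higher for Atp5mpl 0.84 (0.27), Ndufa4 0.81 (0.36), Atp5f1 0.75 (0.63), Ndufs1 0.64 (0.32), Uqcrc2 0.56 (0.06), Ndufv2 0.53 (-0.08), Atp5c1 0.52 (0.29), Sdhd 0.45 (0.36), Cox7a2 0.41 (0.61), Cox8a 0.4 (1.68) and Uqcrh 0.34 (0.3). The KO response was the lower one for Ndufb7 -1.99 (-0.65), Ndufs7 -1.85 (-0.43), Ndufa11 -1.84 (-0.73), Uqcr11 -1.48 (-0.25), Atp5d -1.47 (-0.02), Uqcr10 -1.42 (-0.74), Cox4i1 -1.16 (-0.17), Ndufaf3 -1.14 (-0.36), Ndufs8 -1.05 (0.03), Ndufaf8 -1.02 (-0.33), Ndufv1 -0.92 (-0.05), Uqcrc1 -0.8 (0.23), Atp5g2 -0.73 (0.13) and Cox7a2l -0.47 (-0.51).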

How the results depend on the processing

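Counts below are members higher and lower. Shares of all genes called were taken only for edgeR on all 17 libraries, with and without GC correction, so the other settings have no background. With GC correction they were 11 and 2 for KO against WT without stimulation, 7 and 16 for anti-CD3 in WT cells, 3 and 1 for the anti-CD3 interaction and 6 lower for the interaction with both antibodies. Correlations of same-numbered libraries ran from -0.494 to 0.632 (median 0.0205, 40 pairs), so the numbers were not treated as pairs. A replicate block gave 25 and 0, 31 and 1, and 32 and 1 for KO against WT in the 3 states, and with GC correction 9 and 1 without stimulation, 7 and 16 for anti-CD3 in WT cells, 7 higher for both antibodies in WT cells, 4 and 1 for the anti-CD3 interaction and 6 lower for the other. Without the 2 libraries of extreme GC trend, a setting added after seeing the data, KO against WT with both antibodies had 0 lower, anti-CD3 in WT cells 4 higher, both antibodies 8 higher in KO and 17 in WT cells, added anti-CD28 in WT cells 13 and 7, and the interaction with both antibodies 15 higher. With GC correction as well, KO against WT without stimulation had 7 and 1, anti-CD3 in WT cells 7 and 18, both antibodies in KO cells 13 and 12, added anti-CD28 in WT cells 3 lower, and the interactions 2 and 1 and 13 and 3. Gene length correction gave 8 lower without stimulation and 14 higher with anti-CD3 for KO against WT. Voom gave 58 higher with anti-CD3 and 56 and 17 with both antibodies for KO against WT, 23 lower and 5 and 18 for anti-CD3 in KO and in WT cells, 32 lower and 20 and 37 for both antibodies in KO and in WT cells, 16 and 20 and 22 and 23 for added anti-CD28 in KO and in WT cells, and 4 and 1 for the anti-CD3 interaction. Only the groups compared gave 51 higher and 0 and 0 for KO against WT with anti-CD3 and with both, 6 and 16 for anti-CD3 in WT cells, 10 and 10 and 20 higher for both antibodies in KO and in WT cells, 21 and 20 for added anti-CD28 in WT cells, and 2 and 1 and 18 higher for the interactions. No filter gave 0 lower for KO against WT with anti-CD3. DESeq2 gave 4 lower for KO against WT with both antibodies, 4 higher for anti-CD3 in WT cells, 2 and 3 for added anti-CD28 in WT cells and 1 and 1 for the anti-CD3 interaction. Leaving out 1 library gave ranges of 4 to 29 and 0 to 1, 9 to 46 and 0 to 1, and 0 to 45 and 0 to 10 for KO against WT in the 3 states. For stimulation the ranges were 10 to 25 and 6 to 13 for anti-CD3 in KO, 0 to 4 and 6 to 13 in WT, 12 to 31 and 17 to 27 for both antibodies in KO, and 5 to 17 and 8 to 26 in WT cells. For added anti-CD28 they were 0 to 0 and 0 to 9 in KO and 0 to 9 and 0 to 4 in WT cells, and for the interactions 0 to 4 and 0 to 0, and 14 to 38 and 18 to 22. Among members called in the comparison and the core subunits, a called value changed sign, or a call of the other sign appeared, in GC-corrected fits, and the cause was not tested. Members outside this set also changed sign under the GC and length corrections. For the interaction with both antibodies Cox6a1, Atp5e, Ndufb10, Ndufs6 and Ndufb9 had -0.14, -0.13, -0.25, -0.09 and -0.04 with no call. With GC correction edgeR called them higher at 1.17, 0.42, 0.44, 0.59 and 0.65. Listed next are the sign changes that involved a call, among the called members and core subunits. For KO against WT without stimulation they were Ndufb9 at -0.11, -0.11 and -0.056, Uqcrc1 at -0.015 and -0.015, and Atp5e at -0.017 and -0.018. For both antibodies in KO cells they were Uqcrb at -0.15, Uqcrc1 at 0.21 and 0.21, Cox6a1 at 0.31 and 0.30, and Ndufa4 at -0.022, and in WT cells Uqcrc1 at -0.013, -0.008 and -0.017. For the interaction with both antibodies they were Ndufs8 at 0.026 and 0.055, Ndufv2 at -0.081, -0.079 and -0.082, Cyc1 at 0.41 and 0.44, Uqcrc1 at 0.23, 0.22 and 0.20, and Atp5g2 at 0.13, 0.17 and 0.004. Depth limits the tissue isoforms near 0 counts, and 2 WT libraries limit every comparison with both antibodies.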

Other observations

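Genes of the tricarboxylic acid cycle, which supplies NADH and succinate to the chain, were counted beside the members. With anti-CD3, 7 of 14 were higher in KO than in WT cells and 0 lower by edgeR (median log2 difference 0.28), among them Idh3a, a catalytic subunit of isocitrate dehydrogenase, at 0.55 and Mdh2, mitochondrial malate dehydrogenase, at 0.70. After GC correction 8 were higher and 1 lower, against 11% and 11.5% of all genes. Without stimulation 3 were higher, and with both antibodies 4, among them Fh1, fumarase, at 0.58.

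Of 13 tested regulators of mitochondrial gene expression, 4 were higher and 2 lower in unstimulated KO cells, 2 were higher with anti-CD3, and 3 were higher with both antibodies. After GC correction 2 were higher and 1 lower without stimulation, 5 and 1 with anti-CD3, and 3 and 0 with both antibodies. Lrpprc, which stabilises mitochondrial messenger RNA, was higher by 0.41 with anti-CD3 and by 0.65 with both antibodies. Tfam, which packages mitochondrial DNA, was higher by 0.34 with both antibodies. Of 37 tested assembly factors outside the Nduf names, 9 were higher and 1 lower without stimulation, 9 and 1 with anti-CD3, and 2 and 0 with both antibodies. After GC correction these were 3 and 0, 8 and 1, and 3 and 2. Of all genes tested, 15.3% were higher and 10.1% lower without stimulation, 10.5% and 4.8% with anti-CD3, and 9.84% and 6.3% with both antibodies. With GC correction the shares were 3.04% and 3.26% without stimulation, 11% and 11.5% with anti-CD3, and 9.66% and 7.84% with both antibodies. These lists were chosen with earlier results known, and their part in the members' values was not tested.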
